A study of Homo sapiens with 4 samples.

Results

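The core autophagy machinery was followed in Myla cells after knockdown of FOXM1. The group consisted of the 37 genes whose symbols were listed for it, and all 37 had a single row among the 58735 genes of the deposited expression table. The list was made by function, with earlier results of these data known. Of the 37 genes, 33 reached 1 FPKM (fragments scaled to gene length and to library size) in at least 2 libraries and were tested, and 4 (ULK2, MAP1LC3A, GABARAP and GABARAPL1) did not.

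Autophagy encloses cytoplasm in a double membrane, the autophagosome, which fuses with the lysosome so that its content is degraded. The ULK1 kinase complex starts the process, a lipid kinase complex built on PIK3C3 marks the site with phosphatidylinositol 3-phosphate (PI3P), and lipid carriers feed the growing membrane. A conjugation cascade then links small ubiquitin-like proteins of the ATG8 family to the membrane, and SNARE proteins and tethers complete fusion. In T cells autophagy is known for its part in survival and in metabolic supply after activation.

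Myla is an established cell line from mycosis fungoides, a cutaneous T cell lymphoma. In the shFOXM1 group (2 libraries) cells carried a lentiviral short hairpin RNA against FOXM1, a forkhead factor that drives genes of mitosis, and in the shControl group (2 libraries) a scrambled hairpin in the same kind of vector. Both groups were transduced with 10 uL of lentivirus in 1 mL, given fresh medium after 24 h and lysed for RNA 72 h later, and the labels do not state if shFOXM1 1 and 2 had 1 hairpin sequence or different ones. The submitters call the samples biological replicates without saying that each came from its own transduction. The p-values therefore rest on a spread that may be technical.

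Reads recovered from the FPKM summed to 15017728 and 14680094 in shFOXM1 1 and 2, and to 14147084 and 14778639 in shControl 1 and 2. The totals by which the FPKM had been scaled differed from these sums by -1.44% and 3.80% in shFOXM1 1 and 2, and by 0.319% and -0.173% in shControl 1 and 2. FOXM1 itself was at 9.27 and 5.59 FPKM in shFOXM1 1 and 2, against 26.5 and 27.6 FPKM in shControl 1 and 2. Its fitted log2 fold change of -1.77 (SE 0.23) did not pass after adjustment (limma, adjusted p = 0.173), and it was -2.09 without shFOXM1 1 (limma, adjusted p = 0.0122) and -1.45 without shFOXM1 2 (limma, adjusted p = 0.0331). Without shControl 1 it was -1.80 (limma, adjusted p = 0.753) and without shControl 2 -1.74 (limma, adjusted p = 0.631). Of 12 T cell markers 7 were tested, among them CD3D at 95.1 and 154 FPKM in shFOXM1 and 125 and 118 FPKM in shControl. CD4 was listed at 0 in every library, and CD3E, CD5, CD7 and LCK were at 0.138 FPKM or less. Summed over 12 T cell markers the level was 290 and 344 FPKM in shFOXM1 1 and 2, against 315 and 301 FPKM in shControl 1 and 2. The sums over 10 markers each were 77.7 and 81.4 against 79.5 and 75.8 FPKM for B and plasma cells, 13.5 and 8.58 against 13.03 and 9.21 FPKM for monocytes, 48.4 and 20.4 against 27.1 and 25.4 FPKM for fibroblasts and endothelium, and 20.8 and 26.7 against 23.5 and 22.0 FPKM for keratinocytes, in the same order of libraries. Few genes carried these sums: BLK and MZB1 for B and plasma cells, CSF1R for monocytes, COL3A1 for fibroblasts, and KRT10, TP63 and CDH1 for keratinocytes. CD79A was at 0.27 and 7.38 FPKM in shFOXM1 1 and 2, against 1.73 and 1.44 FPKM in shControl 1 and 2. The B cell markers MS4A1, FCRLA and JCHAIN, the monocyte markers FCGR3A, S100A8 and S100A9, the fibroblast and endothelial markers DCN, LUM, CDH5 and KDR, and the epithelial markers KRT1, KRT8, KRT14, KRT18 and EPCAM were listed at 0 in all libraries. The part of the other marker sums in the results was not tested.

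The comparison asked whether the genes of the autophagy machinery differ in level when FOXM1 is knocked down. Most tested members lay somewhat higher in the shFOXM1 libraries, with the highest fitted log2 fold changes in ATG2A, ATG16L1 and ATG9A, while the protease gene ATG4C lay lower. The mean difference was positive for 26 of the 33 tested members and negative for 7, where 49.9% of all 12033 tested genes had a positive one. Both shFOXM1 libraries lay above both shControl libraries for 16 members, against 27.3% of all genes tested, and below both for 1 member, against 25.9% of all genes tested. The median log2 fold change was 0.15 over the 33 members and -0.00075 over all genes tested.

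No single member passed the test. Limma called 0 members higher and 0 lower at an adjusted p under 0.05, as it did over all genes (0% higher and 0% lower), and adjusted p-values of the members ran from 0.184 to 0.939. Before adjustment, 3 members were higher and 1 lower with p under 0.05, against 8.82% and 8.99% of all genes. Voom on reads recovered from the FPKM also called 0 members, and its unadjusted p was under 0.05 for 4 higher and 1 lower, against 9.37% and 9.32% of all genes. With library weights added voom called 0 members, against 0.166% of all genes higher and 0.0748% lower, and the unadjusted counts were 7 and 0, against 9.22% and 7.92%. With 2 libraries a group the smallest two-sided exact permutation p is 0.333, so single values carry no such test. In bulk RNA, more or fewer cells with a transcript and more or less of it per cell cannot be told apart.

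**Figure D1:**
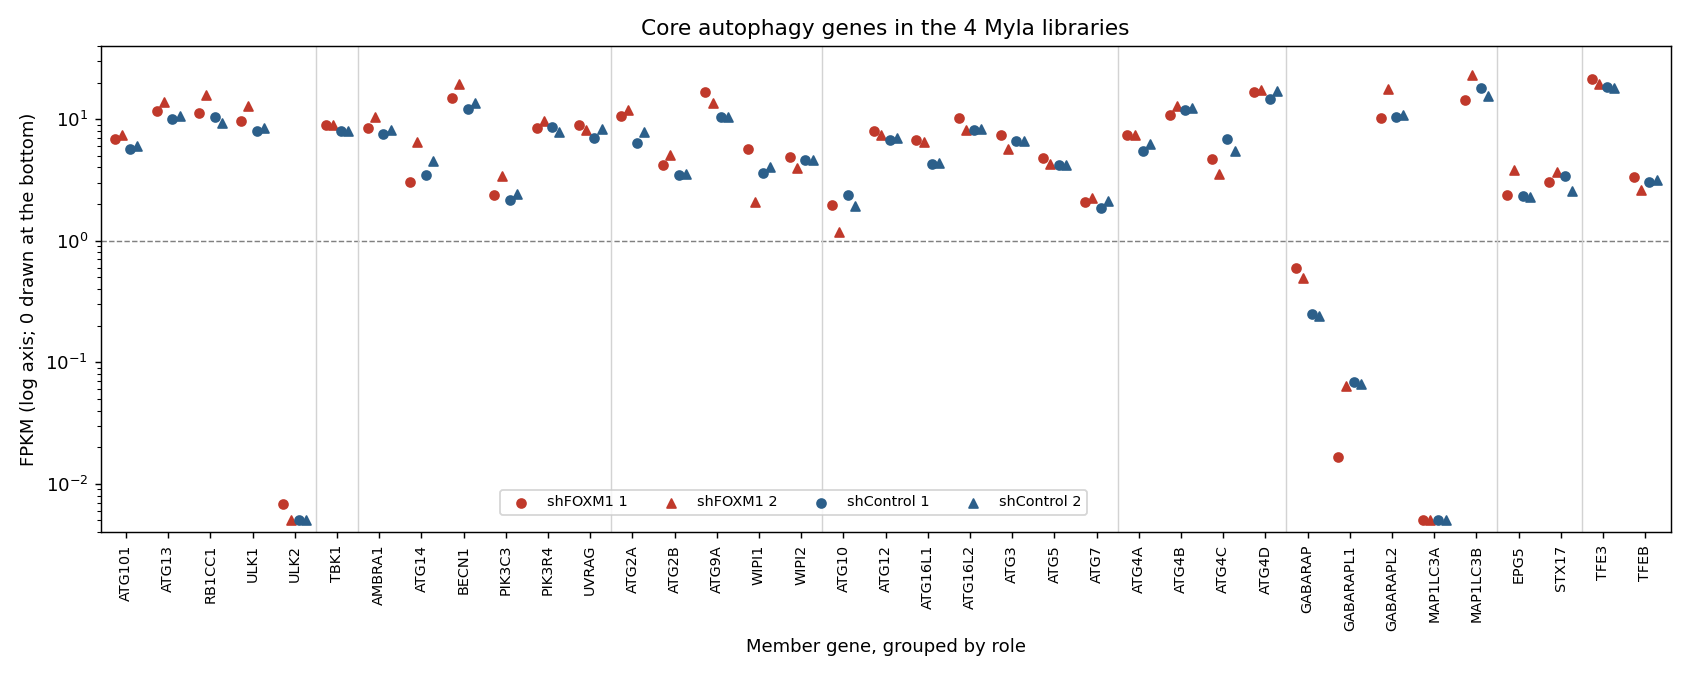
FPKM on a log axis of the 37 member genes, ordered by role, in shFOXM1 1 and 2 (red) and shControl 1 and 2 (blue), with the dashed line at 1 FPKM. The 33 tested genes lie between 1.17 and 23.04 FPKM, while ULK2, MAP1LC3A, GABARAP and GABARAPL1 lie under the line in all libraries.

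**Figure D2:**
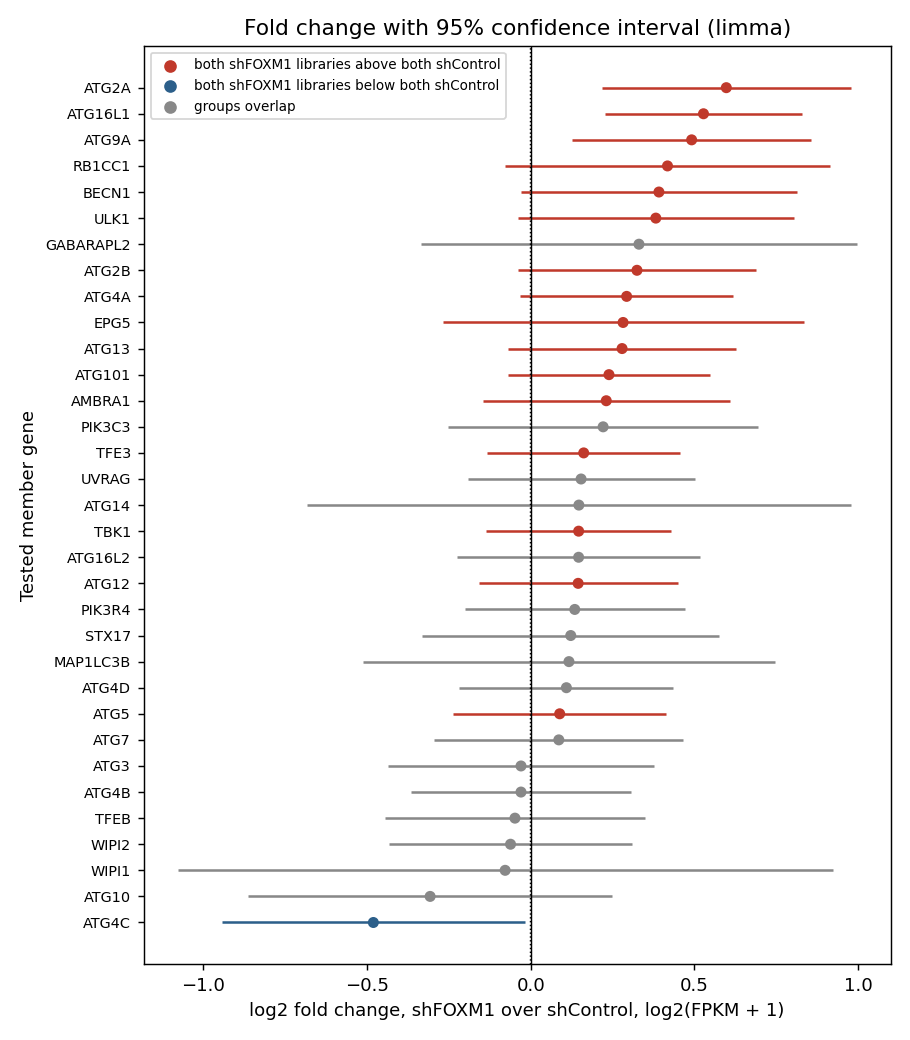
Log2 fold change of shFOXM1 over shControl on the log2(FPKM + 1) scale with its 95% confidence interval from limma for the 33 tested members, coloured by whether the groups overlap. The dotted line marks the median of all genes tested, and the intervals of ATG2A, ATG16L1, ATG9A and ATG4C lie clear of 0 before adjustment over all genes.

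The 4 tested genes of the initiation complex were all higher in both shFOXM1 libraries than in both shControl libraries. Of all genes tested, 27.3% were apart upwards in the same way. ULK1, the kinase that starts autophagosome formation, was at 9.60 and 12.7 FPKM in shFOXM1 1 and 2, against 8.002 and 8.50 FPKM in shControl 1 and 2. RB1CC1, the scaffold of the complex also called FIP200, was at 11.2 and 15.9 FPKM in shFOXM1, against 10.4 and 9.22 FPKM in shControl. For both genes shFOXM1 2 stood highest and the groups did not overlap. ATG13, which links the kinase to the scaffold, was at 11.6 and 13.9 FPKM in shFOXM1, against 10.0 and 10.5 FPKM in shControl. ATG101, the partner that stabilises ATG13, was at 6.82 and 7.41 FPKM in shFOXM1, against 5.70 and 6.04 FPKM in shControl. The smallest distance between the groups was that of ATG101 and RB1CC1, whose lower shFOXM1 library stood less than 1 FPKM above the higher shControl library. The log2 fold changes of the 4 genes ran from 0.24 for ATG101 to 0.42 for RB1CC1 with a median of 0.33, and none passed (limma, adjusted p from 0.313 to 0.365). Of ATG101's exon bases 19.2% are shared with an antisense gene that was listed at 0. ULK2, the second ULK kinase, had 1 read in shFOXM1 1 and 0 in the other libraries, so nearly all reads of the pair were those of ULK1.

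TBK1, a kinase that phosphorylates autophagy receptors, differed little but evenly. It was at 8.88 and 8.99 FPKM in shFOXM1 and 8.02 and 7.93 FPKM in shControl, a log2 fold change of 0.15 (SE 0.11; limma, adjusted p = 0.52). Its 2 libraries of each group lay closer together than the groups did.

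In the lipid kinase complex all 6 members had a higher mean in shFOXM1, as did 49.9% of all genes tested. The groups were apart for BECN1 and AMBRA1, or 33.3% of the complex, near the 27.3% of all genes apart upwards. BECN1, the scaffold protein beclin 1, was at 15.0 and 19.6 FPKM in shFOXM1, against 12.2 and 13.5 FPKM in shControl, with means of 17.3 ± 3.22 and 12.8 ± 0.905 FPKM (SD, n = 2 each). Its log2 fold change was 0.39 (SE 0.16; limma, adjusted p = 0.304). BECN1 shares 17.1% of its exon bases with genes on the opposite strand, among them PSME3, which was at 23.3 and 72.7 FPKM in shFOXM1 1 and 2, against 65.0 and 70.4 FPKM in shControl, and the strand setting of the counting is not given. AMBRA1, a beclin 1 partner, was at 8.40 and 10.5 FPKM in shFOXM1, against 7.58 and 8.13 FPKM in shControl, a log2 fold change of 0.23 (limma, adjusted p = 0.449). AMBRA1 (chr11:46396414-46594125, minus strand) and ATG13 (chr11:46617527-46674818, plus strand) lie near each other on GRCh38. PIK3C3, the catalytic subunit, PIK3R4, its regulatory subunit, and UVRAG, the subunit of the endosomal form, had log2 fold changes of 0.22, 0.13 and 0.15 and overlapping groups.

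ATG14, the subunit that directs the lipid kinase to autophagy, divided the shFOXM1 libraries. It was at 3.06 FPKM in shFOXM1 1 and 6.46 FPKM in shFOXM1 2, against 3.47 and 4.52 FPKM in shControl 1 and 2. The shFOXM1 libraries therefore held both the lowest and the highest value, 2.11 times apart, and the mean log2 fold change of 0.15 (SE 0.32; limma, adjusted p = 0.838) describes neither.

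The lipid transfer genes included ATG2A, which had the highest fitted log2 fold change of the tested members. ATG2A, which bridges membranes and moves lipid into the autophagosome, was at 10.6 and 11.9 FPKM in shFOXM1, against 6.37 and 7.89 FPKM in shControl, a ratio of means of 1.58. The gene (ENSG00000110046, chr11:64894546-64917248, minus strand) had a log2 fold change of 0.60 (SE 0.15; limma, adjusted p = 0.191). ATG9A, the scramblase whose vesicles seed the membrane, was at 16.7 and 13.5 FPKM in shFOXM1, against 10.3 and 10.4 FPKM in shControl, a ratio of 1.45. The gene (ENSG00000198925, chr2:219219380-219229717, minus strand) had a log2 fold change of 0.49 (SE 0.14; limma, adjusted p = 0.214). ATG9A shares 38.8% of its exon bases with AC068946.2 on the same strand, to which 1 to 4 reads a library were assigned. ATG2B, the second lipid carrier, was at 4.21 and 5.08 FPKM in shFOXM1, against 3.44 and 3.55 FPKM in shControl, a log2 fold change of 0.32 (limma, adjusted p = 0.317). Both carriers and ATG9A had groups that did not overlap. They were 60% of the 5 genes of lipid transfer and PI3P binding, against 27.3% of all genes tested apart upwards. In shFOXM1 2 the values of ATG2A and ATG2B were above those in shFOXM1 1, and that of ATG9A was below.

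The PI3P readers WIPI1 and WIPI2 had overlapping groups. WIPI1 was at 5.72 FPKM in shFOXM1 1 and 2.06 FPKM in shFOXM1 2, against 3.58 and 4.005 FPKM in shControl, with 28.1% of its exon bases shared with genes on the opposite strand. Its fold change was 0.49 in log2 without shFOXM1 2 (limma, adjusted p = 0.0844) and -0.64 without shFOXM1 1 (limma, adjusted p = 0.0338), so its direction is set by the library. WIPI2, which recruits ATG16L1 to PI3P, was at 4.88 and 3.93 FPKM in shFOXM1, against 4.64 and 4.61 FPKM in shControl.

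In the conjugation cascade ATG16L1 stood apart from its partners. ATG16L1 brings the ATG5-ATG12 conjugate to the membrane, where it acts as the ligase for ATG8 proteins. It was at 6.78 and 6.52 FPKM in shFOXM1, against 4.26 and 4.35 FPKM in shControl, with means of 6.65 ± 0.183 and 4.31 ± 0.0597 FPKM (SD, n = 2 each) and a ratio of 1.54. The values rested on 607 and 601 reads in shFOXM1, against 366 and 388 reads in shControl. The gene (ENSG00000085978, chr2:233210051-233295674, plus strand) had the smallest p of the members, with a log2 fold change of 0.53 (SE 0.12; limma, unadjusted p = 0.00651, adjusted p = 0.184), and its log2 fold change stayed between 0.50 and 0.55 when each library was left out in turn. Its adjusted p in limma was 0.0323 without shFOXM1 1 and 0.0575 without shFOXM1 2, where the spread is that of shControl alone, and 0.927 without shControl 1 and 0.904 without shControl 2.

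The other conjugation genes had smaller log2 fold changes than ATG16L1. ATG5 and ATG12 had groups that did not overlap but log2 fold changes of 0.09 and 0.15, and ATG16L2, a paralogue of ATG16L1, had one of 0.15 with overlapping groups. ATG7, the activating enzyme, and ATG3, the enzyme that hands ATG8 proteins to lipid, had 0.09 and -0.03 with overlapping groups. ATG10, the enzyme that joins ATG12 to ATG5, was at 1.97 and 1.17 FPKM in shFOXM1, against 2.35 and 1.94 FPKM in shControl, a log2 fold change of -0.31 (SE 0.21; limma, adjusted p = 0.492) that was -0.47 with a pseudocount of 0.1, -0.53 without shFOXM1 1 and -0.080 without shFOXM1 2. Its values rested on 97 to 182 reads, and the groups overlapped by a narrow margin. ATG10 shares 6.86% of its exon bases with RPS23 on the opposite strand. RPS23 was at 65.3 and 77.5 FPKM in shFOXM1, against 68.3 and 74.2 FPKM in shControl.

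The ATG4 proteases, which trim ATG8 proteins and release them from lipid, went different ways. ATG4A was at 7.36 and 7.35 FPKM in shFOXM1, against 5.42 and 6.25 FPKM in shControl, a log2 fold change of 0.29 (SE 0.13; limma, adjusted p = 0.314). ATG4C was at 4.67 and 3.57 FPKM in shFOXM1, against 6.84 and 5.43 FPKM in shControl, with means of 4.12 ± 0.781 and 6.13 ± 1.00 FPKM (SD, n = 2 each). It was the only tested member with both shFOXM1 libraries below both shControl libraries. The gene (ENSG00000125703, chr1:62784135-62865513, plus strand) had a log2 fold change of -0.48 (SE 0.18; limma, unadjusted p = 0.0446, adjusted p = 0.269). ATG4B, known as the most active of the proteases, and ATG4D had log2 fold changes of -0.03 and 0.11 and overlapping groups.

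Of the 5 ATG8 genes only MAP1LC3B and GABARAPL2 were measured well. MAP1LC3B, the LC3 protein used as the marker of autophagosomes, was at 14.3 FPKM in shFOXM1 1 and 23.04 FPKM in shFOXM1 2, against 18.0 and 15.5 FPKM in shControl. GABARAPL2 was at 10.3 FPKM in shFOXM1 1 and 17.7 FPKM in shFOXM1 2, against 10.4 and 10.8 FPKM in shControl. In both genes shFOXM1 2 was the highest library and shFOXM1 1 the lowest, and their log2 fold changes of 0.12 (SE 0.24) and 0.33 (SE 0.26) had adjusted p-values of 0.831 and 0.534 in limma. MAP1LC3B2, a near-identical copy of MAP1LC3B, held 32 and 41 reads in shFOXM1, against 27 and 40 reads in shControl, and MAP1LC3B 1123 and 1865 against 1354 and 1213 reads. How reads that match both genes were counted is not stated.

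The other ATG8 genes were at or near 0. MAP1LC3A was listed at 0 in all libraries and GABARAPL1 held 1 and 4 reads in shFOXM1, against 4 and 4 reads in shControl. GABARAP was at 0.596 and 0.492 FPKM in shFOXM1, against 0.249 and 0.239 FPKM in shControl, from 20 and 17 reads against 8 and 8 reads. Its level here is uncertain in all libraries. Of the 1634 bases of its principal transcript in GENCODE 29, 74.7% lie in exons of other genes, 42.3% in those of AC120057.2 on the same strand, which was listed at 0 reads in every library, and how reads shared by genes were counted is not given in the sources used here.

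Among the fusion genes, EPG5, a tether of autophagosome and lysosome, was at 2.37 FPKM in shFOXM1 1 and 3.83 FPKM in shFOXM1 2, against 2.35 and 2.28 FPKM in shControl. Its groups were apart only by the small margin of shFOXM1 1, and its log2 fold change was 0.28 (SE 0.21; limma, adjusted p = 0.524). STX17, the SNARE of the autophagosome, was at 3.02 and 3.67 FPKM in shFOXM1, against 3.43 and 2.57 FPKM in shControl, and its groups overlapped.

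The transcription factors TFEB and TFE3, which switch on lysosomal and autophagy genes, differed little at the RNA level. TFE3 was at 21.5 and 19.3 FPKM in shFOXM1, against 18.3 and 17.9 FPKM in shControl, a log2 fold change of 0.16 (SE 0.11; limma, adjusted p = 0.496) with groups that did not overlap. TFEB was at 3.33 and 2.61 FPKM in shFOXM1, against 3.03 and 3.14 FPKM in shControl, a log2 fold change of -0.05 (SE 0.15; limma, adjusted p = 0.893), with the highest and the lowest value both in shFOXM1. TFE3 stood at several times the FPKM of TFEB in each library.

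RefSeq promoter windows on GRCh38.p14, each 250 bases before to 50 bases after a gene's start, were available for 31 members as 36 windows and were searched on both strands. The core of the motif bound by TFEB and TFE3, CACGTG, was in 3 of 36 member windows, or 8.33%, and in 7.26% of 35116 windows of all genes. Its longer form GTCACGTG, which contains the core, was in the same 3 windows and in 2.4% of all windows. The windows were those of ATG3, ATG14 and TBK1. Those of TBK1 and ATG14 are given because their p-values in limma were smaller than that of ATG3. The capitals mark GTCACGTG or its reverse complement, and the sequences run 5′ to 3′ on the gene's strand.
TBK1 promoter, chr12:64451870-64452169, plus strand: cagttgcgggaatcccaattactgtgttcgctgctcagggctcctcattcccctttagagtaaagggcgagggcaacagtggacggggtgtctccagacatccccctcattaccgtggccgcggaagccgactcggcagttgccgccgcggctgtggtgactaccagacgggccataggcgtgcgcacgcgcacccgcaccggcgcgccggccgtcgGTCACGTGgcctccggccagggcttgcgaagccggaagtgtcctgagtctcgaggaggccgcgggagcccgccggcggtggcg
ATG14 promoter, chr14:55411781-55412080, minus strand: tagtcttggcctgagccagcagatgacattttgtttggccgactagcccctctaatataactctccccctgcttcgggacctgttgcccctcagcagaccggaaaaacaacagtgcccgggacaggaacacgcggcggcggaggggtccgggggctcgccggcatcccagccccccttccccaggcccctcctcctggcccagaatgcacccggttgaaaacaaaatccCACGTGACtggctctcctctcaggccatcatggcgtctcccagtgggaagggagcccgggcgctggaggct

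The match began 33 bases before the annotated start of TBK1 and 21 bases before that of ATG14. The forkhead motif TGTTTAC was in 0 of the 36 member windows and in 3.42% of all windows. TTTGAA, the CHR element of cell cycle genes, was in 3 member windows, those of ATG5, ATG12 and WIPI2, and in 15.2% of all windows. The log2 fold changes of the 3 genes with GTCACGTG were 0.15 for TBK1, 0.15 for ATG14 and -0.03 for ATG3.

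The shFOXM1 libraries differed from each other in how far single members lay from the control mean. Over the 33 tested members the median difference from the shControl mean was 0.14 in log2 in shFOXM1 1 and 0.23 in shFOXM1 2, against 0.023 and -0.0084 over all genes, and shControl 1 lay -0.03 from shControl 2 over the members. ShFOXM1 1 lay above both shControl libraries for 22 members (44.3% of all genes), and shFOXM1 2 for 25 members (42.3% of all genes). FOXM1 was the lower of the 2 in shFOXM1 2. The value in shFOXM1 2 was above that in shFOXM1 1 for 19 of 33 members, against 46.6% of all genes. By role this held for all 4 tested initiation genes, TBK1, 5 of 6 lipid kinase genes, 2 of 5 genes of lipid transfer and PI3P binding, 1 of 7 conjugation genes, 2 of 4 proteases, 2 of 2 ATG8 genes, 2 of 2 fusion genes and 0 of 2 transcription factors. The median absolute difference between the libraries of a group was 0.25 in log2 over the members and 0.23 over all genes in shFOXM1, and 0.08 over the members and 0.10 over all genes in shControl.

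**Figure D3:**
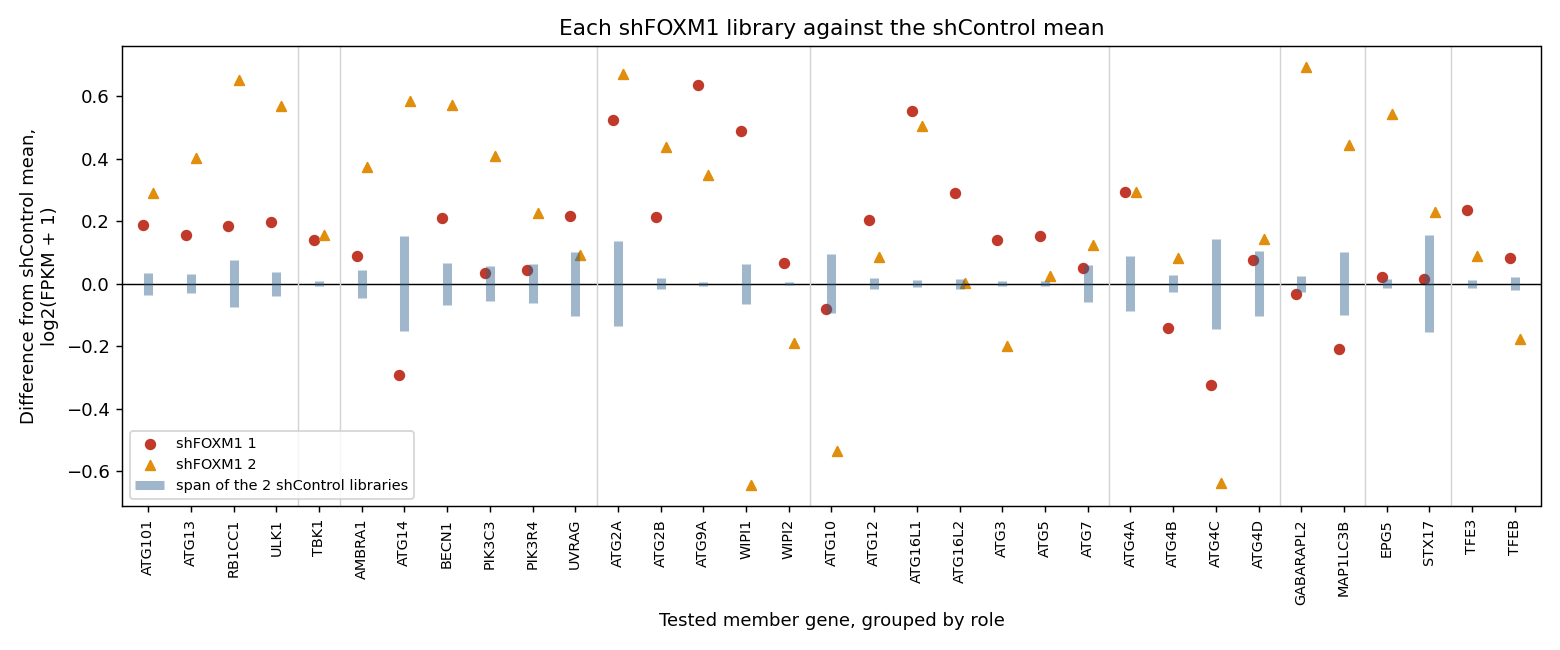
Difference of each shFOXM1 library from the shControl mean in log2(FPKM + 1) for the 33 tested members, ordered by role, with bars for the span of the 2 shControl libraries. ATG2A and ATG16L1 lie above 0.5 in both shFOXM1 libraries. For WIPI1, ATG14, MAP1LC3B, GABARAPL2, ATG3, ATG4B, WIPI2 and TFEB the shFOXM1 libraries lie on opposite sides of 0.

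The calls depended on which shFOXM1 library was used. Without shFOXM1 1, limma called 9 members higher and 2 lower, against 11.3% of all genes higher and 14.5% lower. The higher ones were ULK1, RB1CC1, ATG13, BECN1, ATG2A, ATG9A, ATG16L1, GABARAPL2 and EPG5, and the lower ones ATG4C and WIPI1. Without shFOXM1 2 it called ATG9A higher and 0 members lower, against 2.34% of all genes higher and 2.95% lower. In both fits the lone shFOXM1 library is taken to vary as the shControl libraries did, which lay closer together.

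Among the lists of genes that work around the machinery, the fusion list had the highest median. Of 12 further core autophagy genes 11 were tested. The groups were apart upwards for 5 (45.5%) and downwards for 1 (9.09%), against 27.3% and 25.9% of all genes tested. WDR45, a PI3P reader related to WIPI1 and WIPI2, was at 8.74 and 8.55 FPKM in shFOXM1, against 5.27 and 5.53 FPKM in shControl (log2 fold change 0.59; limma, adjusted p = 0.183). Its paralogue WDR45B and SH3GLB1, a beclin 1 partner that binds membranes, had log2 fold changes of 0.29 and 0.28. Of 15 genes of autophagosome fusion with the lysosome 13 were tested, with a median log2 fold change of 0.38. Here the groups were apart upwards for 9 (69.2%) and downwards for 0 (0%), against the same 27.3% and 25.9% of all genes. VPS11, a core subunit of the HOPS tether, was at 11.8 and 15.7 FPKM in shFOXM1, against 8.53 and 8.28 FPKM in shControl. PLEKHM1, an adaptor between LC3 and HOPS, was at 9.33 and 9.18 FPKM in shFOXM1, against 6.53 and 6.59 FPKM in shControl, and VPS41, another HOPS subunit, at 9.44 and 8.61 against 7.09 and 5.84 FPKM. Of these 3 genes the log2 fold changes were 0.64, 0.44 and 0.43, with adjusted p-values of 0.195, 0.195 and 0.24 in limma.

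Of the 32 genes of mTORC1 and AMPK, the kinases that hold back and favour autophagy, 28 were tested, with a median log2 fold change of 0.08. Their groups were apart upwards for 12 (42.9%) and downwards for 5 (17.9%), against 27.3% and 25.9% of all genes tested. FNIP2, a folliculin partner, was at 4.66 and 4.76 FPKM in shFOXM1, against 7.75 and 8.76 FPKM in shControl, a log2 fold change of -0.70. MTOR, the kinase of mTORC1, was at 16.3 and 16.2 FPKM in shFOXM1, against 11.5 and 10.5 FPKM in shControl, and LAMTOR4, of the complex that holds mTORC1 at the lysosome, at 16.0 and 18.2 against 11.3 and 10.8 FPKM. Of the 34 lysosome genes 31 were tested, with a median log2 fold change of 0.05. Groups were apart upwards for 12 (38.7%) and downwards for 5 (16.1%), against the same 27.3% and 25.9% of all genes. NEU1, a sialidase, was at 2.34 and 2.69 FPKM in shFOXM1, against 0.891 and 1.07 FPKM in shControl, CLCN7, a lysosomal chloride transporter, at 16.8 and 18.7 against 11.9 and 13.02 FPKM, and ATP6AP1, a proton pump subunit, at 23.9 and 28.9 against 16.0 and 18.7 FPKM. Their log2 fold changes were 0.83, 0.48 and 0.58, that of NEU1 being 1.28 with a pseudocount of 0.1 and 1.37 with voom. NEU1 reached 1 FPKM in both shFOXM1 libraries but only in shControl 2, so it passed the filter through the group where it was high. Adjusted p-values of the 6 genes named from these lists ran from 0.176 to 0.196 in limma. Limma called 0 genes of these 4 lists, and before adjustment 15 of them were higher and 2 lower with p under 0.05, against the 8.82% and 8.99% of all genes given above.

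**Figure D4:**
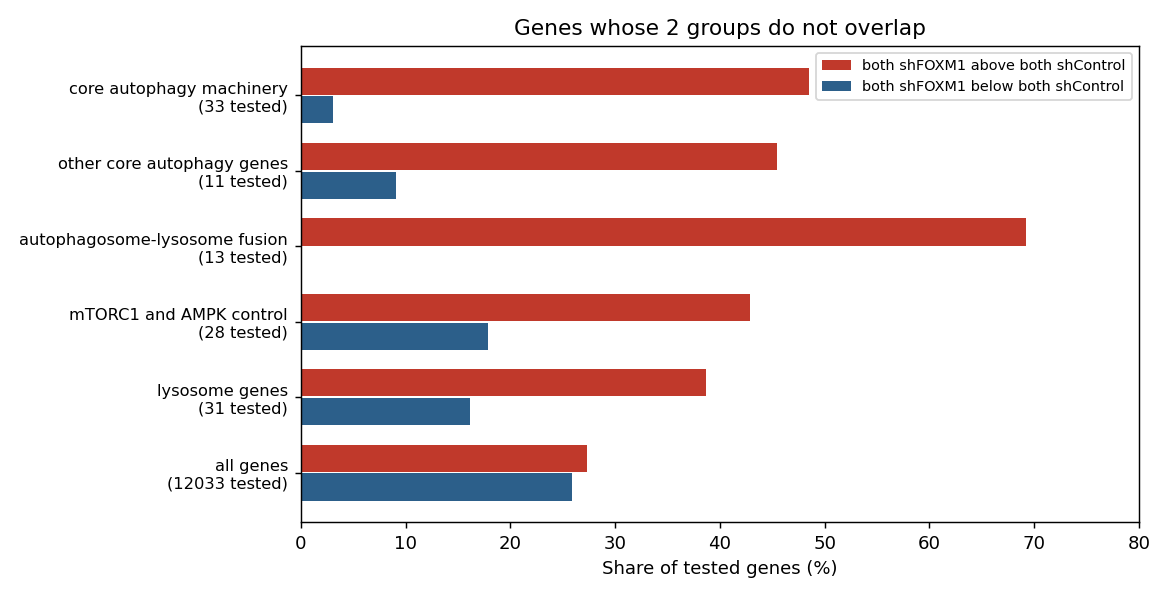
Share of tested genes with both shFOXM1 libraries above (red) or below (blue) both shControl libraries, for the machinery, 4 lists of related genes and all 12033 genes tested. The red bar is 48.5% for the machinery and 69.2% for the fusion list, against 27.3% for all genes, and the blue bars are 3.03% and 0% against 25.9%.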

How the data were processed

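Messenger RNA libraries of Myla cells (2 shFOXM1, 2 shControl) were made with a SMARTER kit, per the labels' protocols. The authors deposited an FPKM table, per the file headers. GRCm38 and mm10, both mouse builds, are listed in the submitters' processing notes, but all 58735 genes have the identifiers, starts and ends of human GENCODE 29 (GRCh38). No aligner, read counter or strandedness is named in the labels or header. The columns named sh0 were taken as shControl and sh1 and sh2 as shFOXM1 1 and 2, and there were 0 columns of other samples.

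Multiplied by gene length, the FPKM were whole multiples of 1 read (100% of values, tolerance 0.001). Libraries of a group differed beyond read-counting noise (chi-square per degree of freedom 36.5 in shFOXM1 and 3.93 in shControl) and were kept as separate samples, which does not show that they came from separate RNA. The 12033 genes that reached 1 FPKM in 2 or more libraries entered limma 3.58.1 (R 4.3.3) as log2(FPKM + 1), with a trend, two-sided and Benjamini-Hochberg adjusted over all genes, at a threshold of 0.05. Fold changes are on that scale, which understates low genes. Exon overlaps are from GENCODE 29 and promoters from RefSeq (GRCh38.p14).

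The members and lists were chosen with earlier results of these data known. Values in every library were given for members averaging 1 FPKM or more whose groups did not overlap, up to 14 by smallest p, for the ATG8 genes, TFEB and TFE3, and for up to 3 genes a list by smallest p; ATG14, WIPI1, WIPI2, ATG10, EPG5 and STX17 were added after their values were seen. Alternatives were another pseudocount, filters, scalings, voom, a replicate block, no trend and leaving out each library.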

Additional observations from a re-analysis of the deposited data

How the results depend on the processing

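Limma or voom called 0 genes and 0 members with a pseudocount of 0.1, no filter, genes averaging 5 FPKM or more, quantile normalization, scaling to recovered totals, voom, no trend and the replicate block, and the members' median log2 fold change ran from 0.14 to 0.20 over these. Over the 12033 tested genes, the deviations of shFOXM1 1 and shControl 1 from their group means had a correlation of 0.0421. With 2 libraries a group, shFOXM1 2 and shControl 2 give the same value. With the replicate block FOXM1 was at -1.77 (limma, adjusted p = 0.162). Voom with library weights called 29 genes, 20 higher and 9 lower, and 0 members, with FOXM1 at -1.89 (adjusted p = 0.0202). Leaving out single libraries gave 0 to 3104 genes, 0 to 11 members, FOXM1 from -2.09 to -1.45 and a members' median from 0.14 to 0.23; the calls came without shFOXM1 1 or shFOXM1 2, where the spread is that of shControl alone. Over 418 values of single members, 396 kept direction and side of the threshold, 12 newly passed and 10 turned direction, all of these with a library left out. The log2 fold change then ran from -0.14 to 0.082 for ATG4B, -0.29 to 0.59 for ATG14, -0.20 to 0.14 for ATG3, -0.64 to 0.49 for WIPI1, -0.19 to 0.066 for WIPI2, -0.21 to 0.44 for MAP1LC3B, -0.032 to 0.69 for GABARAPL2, -0.18 to 0.082 for TFEB and -0.033 to 0.28 for STX17. The cause was not tested. GABARAP, GABARAPL1 and ULK2 had 20 reads or fewer a library, so their counting error is wide.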
